A study of Mus musculus with 9 samples.

Results

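Macrophages treated with interleukin-27 (IL-27) were compared with macrophages treated with interleukin-4 (IL-4), gene by gene, with attention to the genes that these cytokines moved in opposite directions from untreated cells. The comparison uses the 3 IL-27 and 3 IL-4 libraries out of 9 in the series, and the 3 untreated libraries set the direction of each change. A gene counted as opposed when IL-4 against untreated and IL-27 against untreated both passed an adjusted p of 0.05 with opposite signs. The deposited table lists 16200 genes. Enough counts for a test were found for 12587 of them, and 705 were opposed: 393 were higher under IL-4 and lower under IL-27, and 312 were lower under IL-4 and higher under IL-27.

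All 9 libraries hold polyA RNA of macrophages grown from wild-type mouse bone marrow over 6 days in DMEM with fetal calf serum and 10% L929 supernatant, which supplies macrophage growth factor, and then reseeded. Cells were left untreated, given 20 ng/ml IL-4 for 12 h or given 100 ng/ml IL-27 for 6 h. Cytokine, dose and time therefore differ together between the treated groups and cannot be told apart. The labels place both cytokines in a single protocol text and leave unstated whether IL-27 cells also met IL-4, and how long the untreated cells were kept. Replicate experiments are stated for each group, but not separate animals, so the p-values measure the spread among these libraries, which may be technical.

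IL-4 signals through a receptor containing the Il4ra chain and activates the transcription factor STAT6, which drives alternative activation: arginase, chitinase-like and resistin-like proteins, lectins and, in some macrophages, proliferation. IL-27 signals through Il27ra and Il6st, the gp130 chain, and activates transcription factors of the STAT family. Genes it shares with the interferon response include the interferon-inducible GTPases of the Gbp and Irgm families, antigen presentation genes and the ligand PD-L1.

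The libraries held 34577188 to 37951827 counts. Levels below are TMM-normalised CPM, a scale that divides counts by library size, changes are log2 fold changes with their standard error (SE), and adjusted p values come from the edgeR quasi-likelihood test with Benjamini-Hochberg adjustment over all tested genes. Untreated replicate 2 and IL-4 replicate 1 stood apart from the other libraries of their groups: counts in same-group pairs holding either differed with a chi-square per gene of 96.3 to 121, whereas all other same-group pairs had 5.53 to 9.11, and their deviations from the group means went together (r = 0.91 across 9553 genes at 5 CPM or more, which share library and depth). The 7 macrophage markers searched were present in every group, with summed levels of 14446 to 31423 CPM. Markers of T and NK, B, mast and dendritic cells summed to at most 3.55 CPM in any library and those of neutrophils to at most 9.52 CPM. Fibroblast markers were more abundant, with sums of 508 to 1307 CPM that were highest under IL-27.

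In the direct comparison 2366 genes were higher under IL-27 than under IL-4 (18.8% of tested genes) and 2642 were lower (21.0%), 5008 in all (39.8%), and 1050 and 984 of them differed at least 2-fold. Against untreated cells, 1630 genes rose (12.9%) and 1515 fell (12.0%) under IL-4, and 3670 changed under IL-27 (29.2%), of which 1766 rose and 1904 fell. The 393 genes that rose under IL-4 and fell under IL-27 are 3.12% of tested genes and the 312 with the reverse pattern 2.48%. Both contrasts use the same untreated libraries, so an error in the untreated values shifts both changes of a gene together. Leaving out untreated replicate 2 and IL-4 replicate 1 together gave 859 and 759 opposed genes, which included 383 of the 393 and 308 of the 312. Leaving out untreated replicate 1 alone lowered the counts to 270 and 199.

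**Figure D1:**
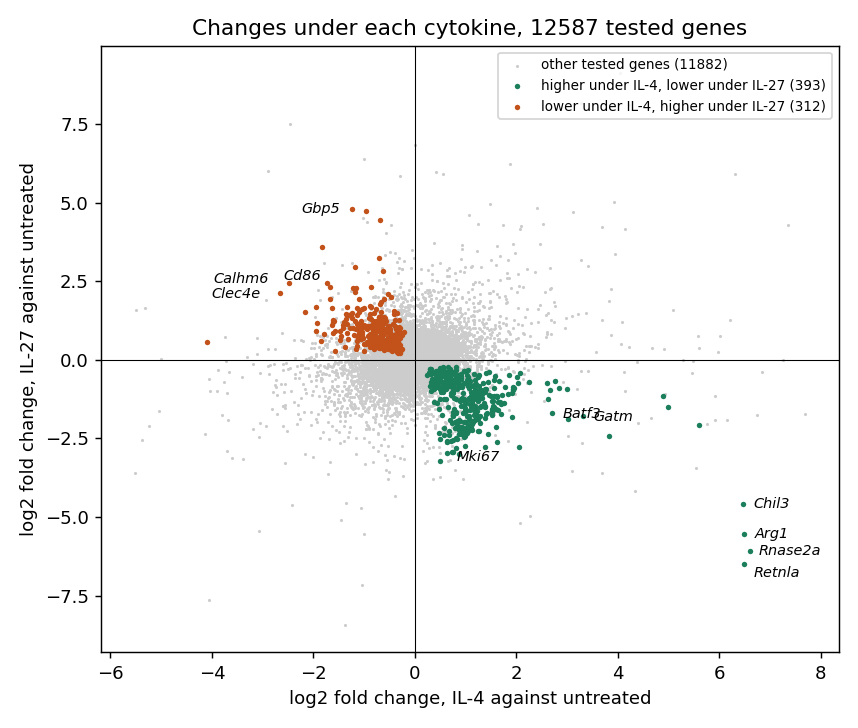
Log2 fold change under IL-4 (x axis) and under IL-27 (y axis), each against the same 3 untreated libraries, for the 12587 tested genes. Green points are the 393 genes higher under IL-4 and lower under IL-27, orange points the 312 genes with the reverse pattern. Retnla, Rnase2a, Arg1 and Chil3 lie far from the other genes at the lower right.

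The direct difference between the cytokines was not a separate test for these genes, since the way they were chosen fixes its sign, and it is given as a description. The median opposed gene differed 4.44-fold between IL-4 and IL-27 in the first set and 2.96-fold in the second, and 206 and 90 genes differed at least 4-fold. In 388 of the 393 and 305 of the 312 the 3 untreated values lay between the 3 IL-4 and the 3 IL-27 values without overlap, an order found in 9.85% of all tested genes. The way the genes were chosen favours this order too, so it is also a description and no separate support for the calls. The IL-27 side made up a median of 51.2% of the log2 distance between the treated groups in the first set and 52.3% in the second, with ranges of 16.8% to 86.6% and 12.0% to 86.6%. Changes were at least 2-fold under both cytokines in 109 and 48 genes. Under all 19 alternative settings tried 209 of the 393 and 159 of the 312 kept the opposed call. At the edge of the definition, Idh2, Clcn7 and H2az1 entered with a larger adjusted p of 0.0498, 0.0497 and 0.0495 (edgeR), and Pira2 and Car5b stayed outside with 0.0501 and 0.0502 (edgeR). Clcn7 and H2az1 lost the call in 10 and 12 of 19 settings, each of them without untreated replicate 1, any 1 IL-27 library or IL-4 replicate 3 (edgeR failing adjusted p from 0.0534 to 0.159 and 0.052 to 0.159).

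The effector genes of alternative activation gave the widest separation. Arg1, which splits arginine to urea and ornithine, stood at 5.06, 4.55 and 6.17 CPM in the untreated, 492, 483 and 443 CPM in the IL-4 and 0.300, 0.0276 and 0 CPM in the IL-27 libraries. Every IL-4 library was above every untreated library, and the IL-27 libraries were at or near 0. Chil3, a secreted chitinase-like protein, stood at 26.2, 21.9 and 26.9 CPM in the untreated, 2088, 2413 and 2138 CPM in the IL-4 and 1.96, 0.579 and 0.574 CPM in the IL-27 libraries, and again the groups were far apart. Arg1 rose by 6.49 ± 0.31 under IL-4 and fell with a log2 change of -5.54 ± 0.46 under IL-27, and Chil3 changed by 6.47 ± 0.33 and -4.58 ± 0.35.

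Retnla, a secreted resistin-like protein, stood at 1.56, 1.02 and 0.809 CPM in the untreated, 116, 112 and 79.1 CPM in the IL-4 and 0.0273, 0 and 0 CPM in the IL-27 libraries. A single IL-27 count was found in 1 library, against 11540 summed IL-4 counts, a ratio of 11137 in CPM with a 95% counting interval of 1998 to 439912. Rnase2a, a ribonuclease of the eosinophil-associated family, stood at 0.0834, 0.241 and 0.363 CPM in the untreated, 29.8, 23.1 and 14.9 CPM in the IL-4 and 0, 0 and 0 CPM in the IL-27 libraries. With 0 IL-27 counts its level was at least 813-fold higher under IL-4, taking a floor of 3 counts over the group, and the exact 95% counting interval had a lower limit of 660.3-fold. With only 2 groups in a fit it had too few counts for a test of IL-27 against untreated. Counts of Chil3, Retnla and Rnase2a may include reads shared with close family members, and how such reads were counted: not given in the sources used here.

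Untreated Arg1, Chil3, Retnla and Rnase2a stood at 1.09%, 1.10%, 1.08% and 0.992% of their IL-4 level in unscaled CPM, and the non-opposed Cdh1 and Il31ra at 0.843% and 0.878%. In IL-27 libraries the same 6 genes stood at 0.0223%, 0.0450%, 0.00861%, 0%, 0.627% and 0.246%. Whether a small amount of IL-4 material is present in the untreated libraries was not tested. After 0.843% of the IL-4 level was subtracted from the untreated libraries, a step chosen after seeing the data, 378 and 312 genes were opposed. Arg1, Chil3 and Cish remained opposed, with smaller log2 changes of -3.39, -2.47 and -1.33 under IL-27 (edgeR adjusted p = 0.0276, 0.0218 and 0.0314). Retnla and Rnase2a kept log2 changes of -4.43 and -4.36 but did not pass (edgeR adjusted p = 0.0857 and 0.164), nor did Irf4 (edgeR adjusted p = 0.123).

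**Figure D2:**
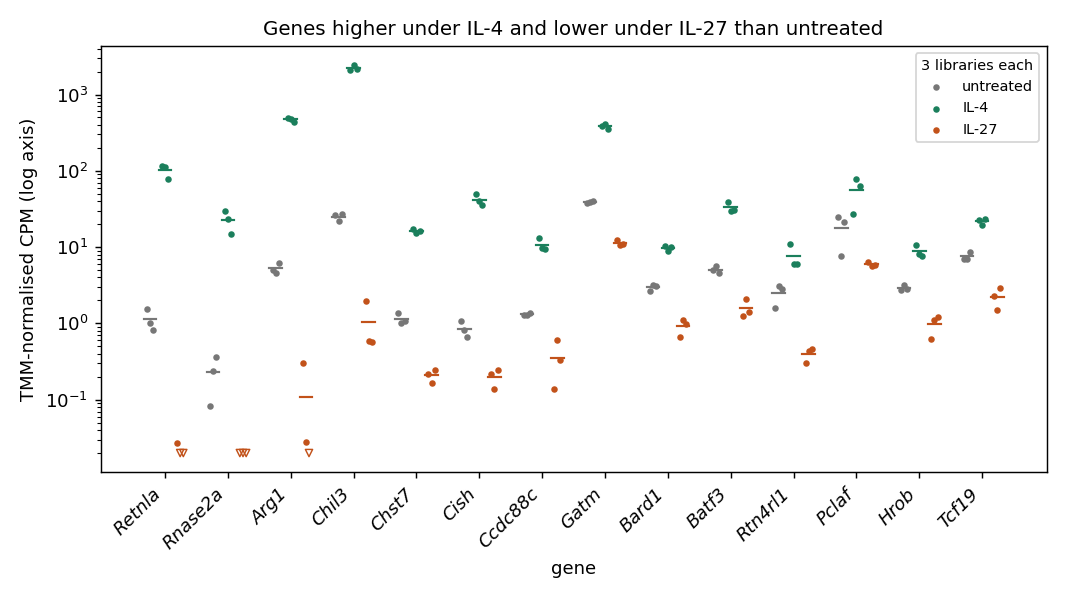
TMM-normalised CPM on a log axis for the 14 genes with the largest smaller change of the set higher under IL-4 and lower under IL-27. Points are the 3 libraries of each group, bars their means, and open triangles mark values below 0.02 CPM. The IL-4 points lie above and the IL-27 points below the untreated points for each gene, as the choice of these genes required.

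Metabolic and signalling genes showed the same order. Gatm, the amidinotransferase that starts creatine synthesis from arginine, stood at 38.1, 38.5 and 40.5 CPM in the untreated, 386, 414 and 357 CPM in the IL-4 and 12.4, 10.6 and 11.1 CPM in the IL-27 libraries. Its groups were tight and did not overlap, with changes of 3.30 ± 0.10 and -1.78 ± 0.10 and a 33.9-fold difference between IL-4 and IL-27. Chst7, a carbohydrate sulfotransferase, stood at 1.36, 1.02 and 1.06 CPM in the untreated, 17.2, 15.5 and 16.2 CPM in the IL-4 and 0.218, 0.166 and 0.246 CPM in the IL-27 libraries, a 76.3-fold difference. Cish, a STAT5-linked feedback inhibitor of cytokine receptors, rose by 5.61 ± 0.22 under IL-4 and fell to 0.218, 0.138 and 0.246 CPM under IL-27. Ptgs1, the constitutive cyclooxygenase, stood at 22.5, 22.8 and 21.6 CPM in the untreated, 154, 132 and 126 CPM in the IL-4 and 12.3, 8.14 and 7.85 CPM in the IL-27 libraries, so the lowest IL-4 value was above 100 CPM and the highest IL-27 value near 12 CPM.

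Of 32 tested genes in the alternative activation list 27 were lower and 2 higher under IL-27 than under IL-4, with a median log2 difference of -3.67 against 0.01 for all tested genes. In this list 28 members rose under IL-4 and 0 fell, while 12 fell and 5 rose under IL-27. Thus 11 (34.4%, against 3.12% of all tested genes) were opposed in this direction and 0 in the other. The 11 are Arg1, Retnla, Chil3, Rnase2a, Cish, Batf3, Irf4, Pparg, Ptgs1, Clec10a and Matk. The calls of Clec10a, a galactose-type lectin, and Matk, a kinase, were less firm: they were lost in 6 and 9 of 19 alternative settings (edgeR failing adjusted p from 0.0541 to 0.119 and 0.0501 to 0.135). For Clec10a these include leaving out untreated replicates 1 or 3, IL-4 replicates 2 or 3 or IL-27 replicate 3, and for Matk untreated replicates 1 or 2, IL-4 replicate 3 or IL-27 replicates 1, 2 or 3. Rnase2a, Retnla and Irf4 lost the call in 3, 2 and 1 of 19 settings, the subtraction described above among them. The rest of the 11 kept it in all 19.

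Mrc1 and Pdcd1lg2, which encode the mannose receptor and the PD-1 ligand PD-L2, differed between the cytokines without being opposed. Mrc1 stood at 312, 283 and 306 CPM in the untreated, 1258, 1438 and 1402 CPM in the IL-4 and 326, 292 and 307 CPM in the IL-27 libraries, with the untreated and IL-27 ranges overlapping. It was 4.43-fold lower under IL-27 than under IL-4 (edgeR adjusted p = 1.29e-07), and its change from untreated under IL-27 was 0.04 ± 0.09 (edgeR adjusted p = 0.775). Pdcd1lg2 had mean levels of 0.84 ± 0.0613 CPM in untreated, 52.8 ± 4.61 CPM in IL-4 and 0.996 ± 0.113 CPM in IL-27 libraries (± SD, n = 3).

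Transcription factors made up 21 of the 393 genes (5.34%) and 11 of the 312 (3.53%), by the factor families annotated in the deposited table, against 7.09% of all tested genes. Irf4, which acts with IL-4 signals in macrophages, stood at 1.06, 2.26 and 1.98 CPM in the untreated, 54.3, 51 and 50.7 CPM in the IL-4 and 0.900, 0.717 and 0.766 CPM in the IL-27 libraries. Most of its distance lay on the IL-4 side, with the IL-27 side at 19.0%. Batf3, a basic leucine zipper factor, stood at 4.98, 5.69 and 4.58 CPM in the untreated, 39.5, 29.6 and 30.3 CPM in the IL-4 and 1.25, 2.1 and 1.39 CPM in the IL-27 libraries and was 20.9-fold lower under IL-27 than under IL-4. Pparg, the lipid-sensing nuclear receptor, moved less, from 83.9, 90.9 and 81.3 CPM in untreated to 130.3, 133 and 126 CPM in IL-4 and 64.2, 65 and 56.5 CPM in IL-27 libraries, without overlap.

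Other factors with this pattern, chosen for mention after their values were seen, were Fosl2, an AP-1 member, with log2 changes of 1.41 under IL-4 and -0.42 under IL-27, and the cell cycle factors Foxm1 (0.94 and -1.69) and E2f8 (1.11 and -1.17). In the reverse set were Smad3, which carries TGF-beta signals, Bhlhe41, a repressor of the circadian clock, and Irf8, a factor of the monocyte lineage. Smad3 stood at 15.2, 16.5 and 12.8 CPM in the untreated, 4.58, 3.94 and 3.87 CPM in the IL-4 and 23.8, 22.7 and 21.4 CPM in the IL-27 libraries, with IL-4 libraries well below the rest. Irf8 stood at 246, 341 and 249 CPM in the untreated, 193, 138 and 151 CPM in the IL-4 and 411, 458 and 413 CPM in the IL-27 libraries and it was no longer opposed when untreated replicates 1 or 3 or IL-27 replicate 2 was left out (edgeR adjusted p from 0.0554 to 0.0599).

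Cell cycle genes formed the largest opposed group. Of 40 tested genes in the list of S, G2 and M phase genes 39 were lower and 0 higher under IL-27 than under IL-4, with a median log2 difference of -2.77. Under IL-4 39 rose, under IL-27 31 fell, and 30 (75%) were opposed, against 3.12% of all tested genes. The count was 37 without the libraries that stood apart. Across the 19 alternative settings Pcna lost the call in 12, Rfc3 in 9, Ccnb2 and Cdc20 in 7 each and Cdc6 in 5. Rfc4 lost it in 4, Bub1 in 3, Pold1 in 2, and Mcm5 and Gins2 in 1 each. The rest of the 30 kept it in all 19. Separating entry and replication genes from those of G2 and mitosis, a division made after the values were seen, showed unequal sizes of the 2 changes.

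Genes of cell cycle entry and DNA replication had the larger rise under IL-4. The 23 tested members had a median change of 1.29 under IL-4 and -0.57 under IL-27, and 14 were opposed. Uhrf1, which maintains DNA methylation at replication forks, stood at 19.6, 26.7 and 21.2 CPM in the untreated, 108, 73.8 and 76.3 CPM in the IL-4 and 11.8, 11.6 and 12 CPM in the IL-27 libraries. Pole, the catalytic subunit of the leading-strand polymerase, stood at 10.4, 12.3 and 10.6 CPM in the untreated, 37.2, 31 and 29.3 CPM in the IL-4 and 4.45, 3.56 and 5.5 CPM in the IL-27 libraries, and Mcm6 of the replicative helicase at 63, 58.2 and 56.2 CPM in the untreated, 173, 156 and 157 CPM in the IL-4 and 46.4, 42.8 and 46.4 CPM in the IL-27 libraries. In all 3 genes each IL-4 value was above each untreated value and each IL-27 value below, with the smaller step on the IL-27 side. Cdt1 and Mcm2, which license origins, had positive changes of 0.55 and 0.30 under IL-27 that did not pass (edgeR adjusted p = 0.0566 and 0.255).

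Genes of G2 and mitosis had the larger fall under IL-27. The 17 tested members had a median change of 0.90 under IL-4 and -2.32 under IL-27, and 16 were opposed. Mki67, the proliferation marker, stood at 203, 111 and 182 CPM in the untreated, 252, 372 and 340.2 CPM in the IL-4 and 28, 30.9 and 31.4 CPM in the IL-27 libraries. Untreated replicate 2 and IL-4 replicate 1, the libraries that stood apart, were the lowest of their groups, and no groups overlapped. Aurkb, a mitotic kinase, stood at 22.1, 24.7 and 21.5 CPM in the untreated, 56.8, 40.1 and 37.7 CPM in the IL-4 and 3.57, 2.48 and 4.08 CPM in the IL-27 libraries, and Cdk1, the mitotic cyclin-dependent kinase, at 36.2, 26.1 and 34 CPM in the untreated, 58.9, 71.8 and 69.9 CPM in the IL-4 and 10.1, 6.95 and 8.75 CPM in the IL-27 libraries. The IL-27 values of these 3 genes were all below the lowest untreated value. Ccnb2, a mitotic cyclin, was the most one-sided opposed gene of its set, with 86.6% of its distance on the IL-27 side. Its rise under IL-4 was small (0.50 ± 0.15) and its opposed call was lost in 7 of 19 settings (edgeR failing adjusted p from 0.0563 to 0.121), among them without untreated replicates 1 or 3, IL-4 replicates 1 or 2, or IL-27 replicate 2.

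**Figure D3:**
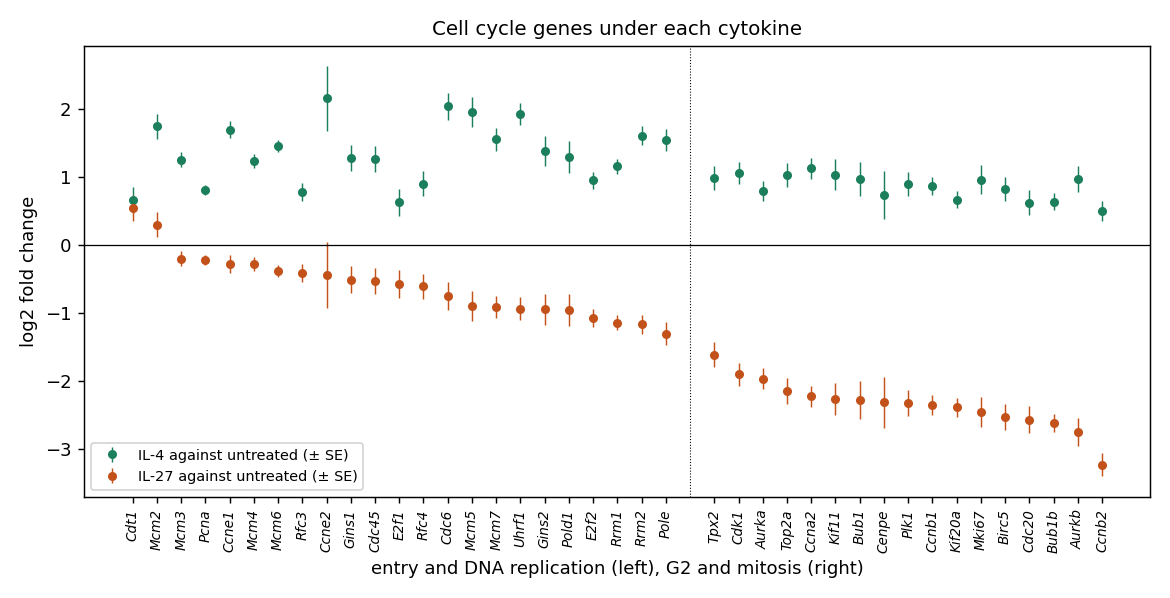
Log2 fold change ± SE against untreated for the 40 tested genes of the cell cycle list, under IL-4 (green) and IL-27 (orange), with entry and replication genes at the left and G2 and mitosis genes at the right, each ordered by the IL-27 change. IL-4 changes run from 0.50 to 2.16 and are higher at the left, and IL-27 changes run from 0.55 to -3.23 and are lowest at the right.

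Pathway annotations of the deposited table gave the same genes under other names. Of 35 tested genes annotated to DNA replication 16 (45.7%) were higher under IL-4 and lower under IL-27, against 3.12% of all tested genes. The counts were 10 of 22 (45.5%) for mismatch repair and 10 of 39 (25.6%) for homologous recombination. These terms share members such as Rpa1, Rpa2 and Pold1. Rpa1 lost the call without untreated replicates 2 or 3 or any 1 IL-27 library and with the replicate block, and Pold1 without IL-27 replicates 1 or 3 (edgeR failing adjusted p from 0.0505 to 0.087 and 0.0537 to 0.056). Bard1, the partner of Brca1, stood at 2.7, 3.19 and 3.13 CPM in the untreated, 10.4, 8.81 and 9.95 CPM in the IL-4 and 0.655, 1.1 and 0.985 CPM in the IL-27 libraries, and Hrob, which helps load a repair helicase, at 2.73, 3.16 and 2.79 CPM in the untreated, 10.7, 8.21 and 7.61 CPM in the IL-4 and 0.627, 1.1 and 1.2 CPM in the IL-27 libraries. Tcf19, a factor of the G1 to S transition, was 9.74-fold lower under IL-27 than under IL-4. Pclaf, a partner of the replication clamp, stood at 24.6, 7.74 and 21.7 CPM in the untreated, 27, 77.4 and 63.7 CPM in the IL-4 and 6.41, 5.6 and 5.91 CPM in the IL-27 libraries. Its lowest untreated and IL-4 values are the libraries that stood apart, and its call was lost in 9 of 19 settings (edgeR failing adjusted p from 0.0601 to 0.0819), including without any 1 library except untreated replicate 2 and IL-4 replicate 1.

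Of 119 tested genes annotated to the cell cycle, 22 (18.5%) were opposed in that direction and 6 (5.04%) in the reverse. All tested genes had shares of 3.12% and 2.48%. The 6 include Cdkn1c, a cyclin-dependent kinase inhibitor, and Gadd45a, a growth arrest and DNA damage gene. Cdkn1c stood at 99.6, 128 and 109 CPM in the untreated, 49.5, 33 and 41 CPM in the IL-4 and 183, 186 and 200.5 CPM in the IL-27 libraries, and Gadd45a at 74.3, 100.0 and 68.4 CPM in the untreated, 39.9, 27 and 28.9 CPM in the IL-4 and 151, 148 and 141 CPM in the IL-27 libraries. For both genes every IL-4 value was below and every IL-27 value above the untreated values. Myc, a driver of growth that rose under IL-4 (2.05 ± 0.14), was not opposed: its change under IL-27 was 0.23 ± 0.13 (edgeR adjusted p = 0.217) and it was 3.52-fold lower under IL-27 than IL-4 (edgeR adjusted p = 3.80e-06).

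Promoters of the opposed cell cycle genes were searched for a pair of motifs, each absent from most of them. RefSeq promoter windows of GRCm38.p6, of which the 250 bases before the start site were searched on both strands, matched 10083 of the 12587 tested genes, 323 of the 393 and 242 of the 312. The letters TTTGGCGC or TTTCGCGC, forms of the E2F site, were in 5 of 24 matched opposed genes of the cell cycle list (20.8%), in 4.02% of the 393-gene set and in 1.48% of all. TTTGAA, the core of the cell cycle homology element, was in 7 of the 24 (29.2%), in 21.7% of the set and in 12.9% of all. In the opposed genes of the 393 outside the cell cycle list the shares were 2.68% and 21.1%, and in the 312-gene set 2.07% and 10.7%. The genes outside that list still include cell cycle genes such as Foxm1, E2f8, Cdk2 and Mcm10, so their shares are not those of other functions alone. Both motifs were chosen after the expression values were seen. Windows from Mcm6 (chr1:128359725-128359772), Cdk1 (chr10:69353016-69353063) and Rfc3 (chr5:151651209-151651238), all on the minus strand and written 5′ to 3′, are shown as examples of the first motif, which is in capitals. The opposed call of Rfc3, a subunit of the clamp loader, was lost in 9 of 19 settings (edgeR failing adjusted p from 0.0518 to 0.16), including without any 1 library except untreated replicate 2, IL-4 replicate 1 and IL-27 replicate 3.
Mcm6: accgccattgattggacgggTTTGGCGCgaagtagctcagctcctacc
Cdk1: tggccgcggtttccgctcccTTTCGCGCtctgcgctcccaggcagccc
Rfc3: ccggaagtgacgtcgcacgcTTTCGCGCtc

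Energy and lipid genes mostly differed between the cytokines without being opposed. In oxidative phosphorylation 46 of 59 tested members were lower and 0 higher under IL-27 than under IL-4 (median log2 difference -0.52), yet 0 were opposed, since 26 rose under IL-4 and 2 fell under IL-27. Without the libraries that stood apart 16 of the 59 were opposed. In the tricarboxylic acid cycle list 21 of 30 were lower and 2 higher, with Fh1 and Idh2 opposed (6.67%). For fatty acid oxidation 16 of 27 were lower and 1 higher, with Hadha opposed (3.70%). Of all tested genes 21.0% were lower and 18.8% higher under IL-27 than under IL-4, and 3.12% were opposed in this direction. The fatty acid oxidation share was thus near that of all tested genes. The calls of Fh1, Idh2 and Hadha were lost in 7, 10 and 11 of 19 settings (edgeR failing adjusted p from 0.05 to 0.143, 0.0507 to 0.141 and 0.0507 to 0.102), each of them without untreated replicate 1 or any 1 IL-27 library.

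For cholesterol synthesis and uptake, 14 of the 23 genes tested were lower and 0 higher under IL-27 than under IL-4. In this list 4 were opposed (17.4%, against 3.12% of all tested genes), among them Mvk, Nsdhl and Stard4. Mvk, the mevalonate kinase, stood at 10.6, 13.6 and 11.4 CPM in the untreated, 21.8, 15.3 and 15.3 CPM in the IL-4 and 6.35, 6.15 and 7.06 CPM in the IL-27 libraries. The opposed calls of Mvk, Nsdhl and Stard4 were lost in 8, 5 and 6 of 19 settings (edgeR failing adjusted p from 0.0542 to 0.118, 0.0638 to 0.115 and 0.0579 to 0.0904), each of them without untreated replicate 1 or any 1 IL-27 library and with the replicate block. Tyms, the thymidylate synthase of one-carbon metabolism, stood at 6.73, 5.21 and 6.5 CPM in the untreated, 24.1, 18.5 and 18.1 CPM in the IL-4 and 2.97, 2.37 and 3.2 CPM in the IL-27 libraries. Pfkfb3 and Pfkfb4, isoforms of the kinase that sets the level of a glycolytic activator, went opposite ways. Pfkfb3 stood at 79.3, 91.1 and 76.2 CPM in the untreated, 52.7, 45.8 and 48.2 CPM in the IL-4 and 172, 177 and 185 CPM in the IL-27 libraries, so it was lowest under IL-4. Pfkfb4 changed by 0.66 ± 0.17 under IL-4 and -0.65 ± 0.17 under IL-27, and its call was lost without untreated replicates 1 or 3 or IL-27 replicates 1 or 3 and with only 2 groups in the fit (edgeR adjusted p up to 0.0707). Hfe, the regulator of iron uptake, stood at 68.4, 76.7 and 67.4 CPM in the untreated, 134, 115 and 113 CPM in the IL-4 and 26.9, 22.1 and 22.6 CPM in the IL-27 libraries.

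Interferon-inducible genes led the reverse set. Of 32 tested genes in the list of interferon gamma targets, 29 were higher and 1 lower under IL-27 than under IL-4 (median log2 difference 2.31), and 9 (28.1%) were lower under IL-4 and higher under IL-27, against 2.48% of all tested genes. Those 9 are Irf8, Gbp3, Gbp5, Gbp8, Gbp9, Irgm1, Irgm2, Il18bp and Slamf8, and without the libraries that stood apart the count was 16. With only 2 groups in each fit Gbp3 and Gbp9 were not opposed (edgeR adjusted p = 0.0716 and 0.0533), nor was Gbp9 without untreated replicate 1 (edgeR adjusted p = 0.0515). Their promoters, in the 7 matched genes, held the core of the interferon-stimulated response element, a pair of GAAA repeats spaced as in the windows shown here, in 5 (71.4%), against 5.79% of the 312-gene set and 3.27% of all. TTCNNNGAA, the palindrome that STAT dimers bind, was in 3 of the 7 (42.9%), in 7.44% of the set and in 7.22% of all. The same palindrome with 1 more base between its arms, the spacing that STAT6 prefers, was in 5.57% of the 393-gene set, 4.96% of the 312-gene set and 5.66% of all. Requiring TTCCNNGAA or TTCNNGGAA, which are special cases of TTCNNNGAA, gave 3 of 7, 4.13% and 4.75%. Windows are shown for Irgm2 (chr11:58214893-58214942, plus strand), Irgm1 (chr11:48871421-48871470, minus strand), Gbp5 (chr3:142496749-142496798, plus strand) and Slamf8 (chr1:172590569-172590603, minus strand), with the interferon motif on either strand in capitals. The Irgm1 window holds a further match that overlaps the marked bases and is partly in lower case.
Irgm2: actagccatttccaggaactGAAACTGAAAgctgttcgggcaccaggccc
Irgm1: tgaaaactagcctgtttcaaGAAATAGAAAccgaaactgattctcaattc
Gbp5: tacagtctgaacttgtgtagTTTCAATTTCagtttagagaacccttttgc
Slamf8: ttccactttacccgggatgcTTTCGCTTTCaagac

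The genes behind these windows had separate groups. Irgm1, a GTPase of cell-autonomous defence, stood at 39.5, 40.3 and 45.5 CPM in the untreated, 24.4, 30.8 and 26.2 CPM in the IL-4 and 283, 308 and 299.5 CPM in the IL-27 libraries. Most of its distance lay above untreated, with changes of -0.62 ± 0.11 and 2.83 ± 0.11. Irgm2, its close relative, stood at 22.1, 18.7 and 24.8 CPM in the untreated, 8.51, 11 and 10.1 CPM in the IL-4 and 43.3, 50.3 and 51.2 CPM in the IL-27 libraries, with near-equal steps of -1.15 ± 0.14 and 1.14 ± 0.14. Gbp5, a guanylate-binding GTPase, stood at 2.00, 1.39 and 1.79 CPM in the untreated, 0.704, 0.649 and 0.84 CPM in the IL-4 and 42.2, 57.4 and 43.7 CPM in the IL-27 libraries, and Slamf8, a receptor of the SLAM family, at 76.7, 95.1 and 80.9 CPM in the untreated, 41.2, 38.1 and 34.8 CPM in the IL-4 and 241, 286 and 262 CPM in the IL-27 libraries. All IL-4 values of these 4 genes were below all untreated values. Members of the Gbp and Irgm families resemble each other, so their counts are uncertain where reads are shared.

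Across the 8 tested Gbp genes, all were higher under IL-27 than under IL-4 and 4 were opposed. In all tested genes these shares were 18.8% and 2.48%. The 8 largest direct differences toward IL-27, at a mean of 5 CPM or more, were in Iigp1, Gbp4, Tgtp2, Gbp2, Gbp5, Hcar2, Gbp6 and Efcc1, of which Gbp5, Hcar2 and Efcc1 were opposed. Hcar2, a receptor for hydroxy acids, lost that call in 4 of 19 settings (edgeR failing adjusted p from 0.0539 to 0.167), with only 2 groups in the fit or without untreated replicates 1 or 3 or IL-4 replicate 2. Iigp1, another such GTPase, stood at 34.3, 44.3 and 36.7 CPM under IL-27 and had 4204 summed counts there against 4 under IL-4, a ratio of 1089 in CPM (95% counting interval 425 to 3999). Gbp2 stood at 8.95, 9.22 and 10.2 CPM in the untreated, 7.28, 8.44 and 7.48 CPM in the IL-4 and 487, 591 and 541 CPM in the IL-27 libraries, with IL-4 values below untreated ones but no call under IL-4 (edgeR adjusted p = 0.0777). It was 69.7-fold higher under IL-27 than under IL-4 (edgeR adjusted p = 3.84e-09). Irf1, a factor of the same response, was 5.00-fold higher under IL-27 than under IL-4 (edgeR adjusted p = 1.38e-06), with a log2 change of 0.00 ± 0.14 under IL-4 that did not pass.

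Antiviral genes were less uniform, with 18 of 43 tested members higher and 4 lower under IL-27 than under IL-4. Among all tested genes 18.8% were higher and 21.0% lower. Rsad2 and Ifit2 were opposed (4.65%, against 2.48% of all tested genes). Rsad2, the antiviral enzyme viperin, stood at 5.31, 5.03 and 4.99 CPM in the untreated, 1.44, 2.37 and 2.34 CPM in the IL-4 and 15.7, 14.5 and 10.7 CPM in the IL-27 libraries, without overlap. Ifit2 lost the call in 8 of 19 settings (edgeR failing adjusted p from 0.0525 to 0.108), among them without any 1 library except untreated replicate 2 and IL-4 replicate 3. Under IL-27 8 members of this list rose and 9 fell, and under IL-4 2 rose and 19 fell. Cd274, which encodes PD-L1, rose under both cytokines, to 161 ± 6.56 CPM under IL-4 and 662 ± 29.1 CPM under IL-27 from 104 ± 5.09 CPM untreated (mean ± SD, n = 3).

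**Figure D4:**
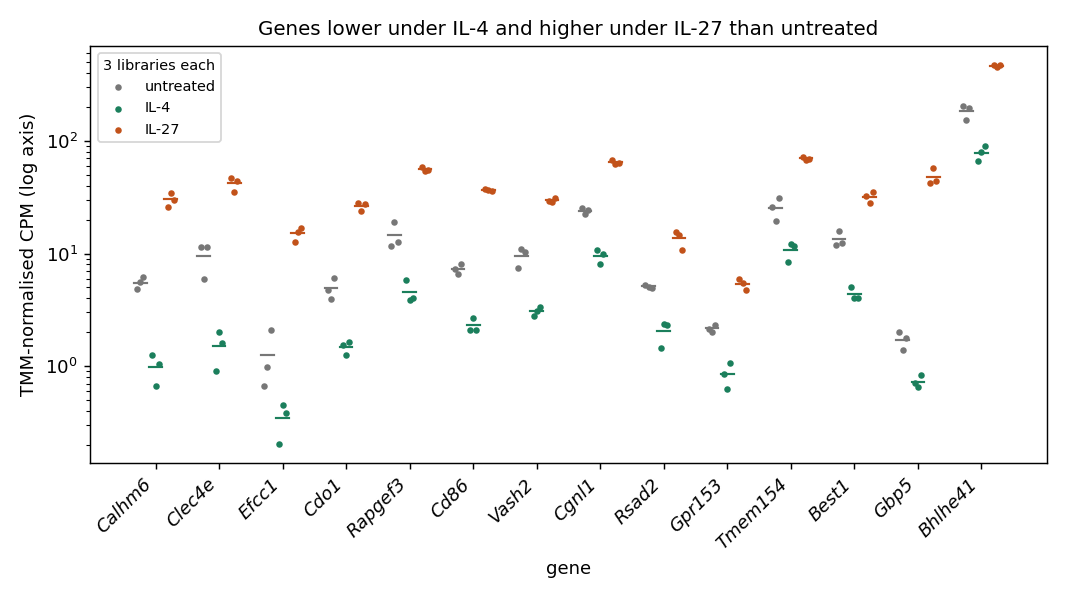
TMM-normalised CPM on a log axis for the 14 genes with the largest smaller change of the set lower under IL-4 and higher under IL-27. Points are the 3 libraries of each group and bars their means. The IL-27 points lie above and the IL-4 points below the untreated points for each gene, as the choice of these genes required.

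Costimulation, pattern recognition and inflammatory genes also entered this set. Cd86, a costimulatory ligand for T cells, stood at 7.26, 6.63 and 8.09 CPM in the untreated, 2.11, 2.7 and 2.11 CPM in the IL-4 and 37.5, 36.4 and 35.7 CPM in the IL-27 libraries. The replicates were tight and the difference between IL-27 and IL-4 was 15.8-fold. Clec4e, the receptor Mincle for mycobacterial glycolipids, stood at 11.4, 5.96 and 11.4 CPM in the untreated, 0.909, 2.00 and 1.6 CPM in the IL-4 and 47.3, 35.2 and 44 CPM in the IL-27 libraries, with untreated replicate 2 below the other untreated libraries but above all IL-4 libraries. Calhm6, a channel-like membrane protein, stood at 4.89, 5.54 and 6.14 CPM in the untreated, 1.26, 0.674 and 1.04 CPM in the IL-4 and 25.9, 34.6 and 30.1 CPM in the IL-27 libraries and had almost equal steps, -2.48 ± 0.22 and 2.45 ± 0.19. Tnf, the inflammatory cytokine, stood at 12.9, 13.5 and 11.8 CPM in the untreated, 7.77, 6.74 and 6.69 CPM in the IL-4 and 19.4, 20.5 and 20.7 CPM in the IL-27 libraries, a 2.86-fold difference without overlap. Of 12 tested genes for PD-1 ligands and costimulation, Cd86 was opposed in this direction and Cd276, a ligand of the B7 family, in the other. Each makes up 8.33% of the list, against 2.48% and 3.12% of all tested genes. Cd276 stood at 30.0, 31.5 and 30.0 CPM in the untreated, 54.8, 43.8 and 46.6 CPM in the IL-4 and 23.3, 22.6 and 18.6 CPM in the IL-27 libraries.

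Of the 26 tested inflammatory genes 13 were higher and 7 lower under IL-27 than under IL-4. Tnf, Cxcl16, Tnfaip3 and Cd86 were opposed (15.4%, against 2.48% of all tested genes). The list had a median log2 difference of 0.39, with more falls than rises under each cytokine (13 and 5 under IL-4, 7 and 6 under IL-27). Among pattern recognition receptors 14 of 27 were higher and 3 lower, and Clec4e and Clec4n were opposed (7.41%, against the same 2.48%). Clec4n, the fungal receptor dectin-2, fell steeply under IL-4 (-4.09 ± 0.20) and rose slightly under IL-27 (0.56 ± 0.16). Its opposed call was lost without untreated replicates 1 or 2 or IL-27 replicates 1 or 3 (edgeR adjusted p from 0.0604 to 0.106).

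Most C-type lectin genes named Clec were not opposed, and those that were went both ways. Of 19 tested, 4 (Clec4a2, Clec4a3, Clec4b1 and Clec10a) were higher under IL-4 and lower under IL-27, and 2 (Clec4e and Clec4n) the reverse. The shares of all tested genes were 3.12% and 2.48%. Clec4a3 stood at 25.7, 21.6 and 27.3 CPM in the untreated, 45.8, 68.2 and 61.4 CPM in the IL-4 and 6.19, 7.26 and 6.56 CPM in the IL-27 libraries, and its groups did not overlap. Clec4a2 and Clec4b1 lost the call in 4 and 5 of 19 settings (edgeR failing adjusted p from 0.0605 to 0.0786 and 0.0537 to 0.0912), the first without IL-4 replicates 2 or 3 and the second without untreated replicates 2 or 3 or IL-4 replicates 1 or 3. The Clec4a and Clec4b genes are close in sequence, so shared reads are possible.

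Of 42 tested genes for cytokine receptors, their kinases, STAT factors and feedback inhibitors, 1 was higher under IL-4 and lower under IL-27 (2.38%, against 3.12% of all tested genes) and 2 the reverse (4.76%, against 2.48%). Il4ra, one of the 2, stood at 66.4, 82.1 and 67.5 CPM in the untreated, 63.4, 52.8 and 49.1 CPM in the IL-4 and 112, 101 and 109 CPM in the IL-27 libraries, with each IL-4 value below each untreated value and a change of -0.39 ± 0.12 under IL-4. Its call was lost in 11 of 19 settings (edgeR failing adjusted p from 0.0551 to 0.152), including without any 1 library except IL-4 replicate 1, and Stat3 lost its call in 12 (edgeR failing adjusted p from 0.0524 to 0.156), including without any 1 library except untreated replicate 2 and IL-4 replicate 1. Il27ra and Il6st were 2.85-fold and 2.84-fold lower under IL-27 than under IL-4 (edgeR adjusted p = 3.77e-04 and 5.50e-07), with changes of -0.20 ± 0.22 and -0.02 ± 0.08 from untreated under IL-27. The feedback inhibitors differed in pattern: Socs1 rose under both cytokines (3.82 under IL-4 and 1.87 under IL-27), Socs3 rose under IL-27 (1.97) and did not pass under IL-4 (-0.22), and Cish was opposed. Il10 stood below 0.8 CPM in every library and did not pass in any comparison.

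Further genes of the reverse set covered several roles in metabolism, signalling and the circadian clock. Cdo1, the dioxygenase that oxidises cysteine, stood at 4.73, 3.92 and 6.11 CPM in the untreated, 1.55, 1.25 and 1.65 CPM in the IL-4 and 28.3, 23.9 and 27.5 CPM in the IL-27 libraries. Rapgef3, an exchange factor activated by cyclic AMP, stood at 11.7, 19.2 and 12.8 CPM in the untreated, 5.84, 3.87 and 4.02 CPM in the IL-4 and 58.4, 54.1 and 55.4 CPM in the IL-27 libraries, and in both genes the IL-27 values were above all others. Bhlhe41 stood at 206, 155 and 196 CPM in the untreated, 66, 80.0 and 90.1 CPM in the IL-4 and 472, 451 and 473 CPM in the IL-27 libraries, a 5.91-fold difference between IL-27 and IL-4. Of 27 tested genes annotated to circadian rhythm, 5 (18.5%, against 2.48% of all tested genes) were opposed in this direction. Among them were Bhlhe41, Cry1, Rora and Csnk1e. Cry1, Rora and Csnk1e lost the call in 5, 6 and 9 of 19 settings (edgeR failing adjusted p from 0.0502 to 0.11), each of them without untreated replicate 1 or IL-4 replicate 3. The groups also differ in hours of exposure, so time and cytokine cannot be told apart here.

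Vash2, a tubulin carboxypeptidase, Cgnl1, a junction protein, Best1, a chloride channel, and the less studied Tmem154, Gpr153 and Efcc1 complete the 14 genes of the plotted set. Vash2 stood at 7.48, 11 and 10.3 CPM in the untreated, 2.79, 3.1 and 3.36 CPM in the IL-4 and 29.2, 28.9 and 31.3 CPM in the IL-27 libraries, and Cgnl1 at 25.5, 22.5 and 24.4 CPM in the untreated, 10.6, 8.14 and 9.92 CPM in the IL-4 and 67.9, 62 and 63.4 CPM in the IL-27 libraries. The separation was 7.33-fold for Best1, 6.5-fold for Tmem154 and 6.33-fold for Gpr153, each without overlap. Efcc1 had 0.667 to 2.09 CPM untreated and below 0.5 CPM in each IL-4 library, and with only 2 groups in a fit it was not opposed (edgeR adjusted p = 0.059).

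A further group, picked by eye after the values were seen, holds matrix, contractile and adhesion genes: 35 genes lower under IL-4 and higher under IL-27. Thbs1, a matrix glycoprotein that activates TGF-beta, stood at 202, 218 and 189 CPM in the untreated, 91.9, 98.9 and 89.4 CPM in the IL-4 and 364, 297 and 331 CPM in the IL-27 libraries. Ccn2, a matricellular protein, stood at 45.7, 50.2 and 39.6 CPM in the untreated, 23.4, 25.1 and 24 CPM in the IL-4 and 126, 108 and 106 CPM in the IL-27 libraries, and Loxl2, a collagen cross-linking oxidase, at 7.95, 10.8 and 9.26 CPM in the untreated, 5.16, 6.47 and 6.08 CPM in the IL-4 and 39.2, 31.2 and 29.4 CPM in the IL-27 libraries. In each gene the IL-4 values were lowest and the IL-27 values highest. Of the 6 fibroblast markers tested, 4 rose under IL-27, 0 changed under IL-4 and 0 were opposed. All 7 markers together had summed levels of 680.0 to 772 CPM in untreated, 508 to 713 CPM in IL-4 and 1045 to 1307 CPM in IL-27 libraries, so the IL-4 and untreated ranges overlapped, and none was at 0 in any group. Of the 6, 5 were higher under IL-27 than under IL-4, among them Col1a2 (314 and 628 CPM under IL-4 and IL-27) and Dcn (5.75 and 34.6 CPM). The part of these cells in the result was not tested, and more cells of a type cannot be told apart from more RNA per cell. Vegfa, the angiogenic factor, had the same order at 79.7, 81 and 84.7 CPM in the untreated, 25.3, 25.5 and 29.2 CPM in the IL-4 and 161, 139.9 and 145 CPM in the IL-27 libraries.

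**Figure D5:**
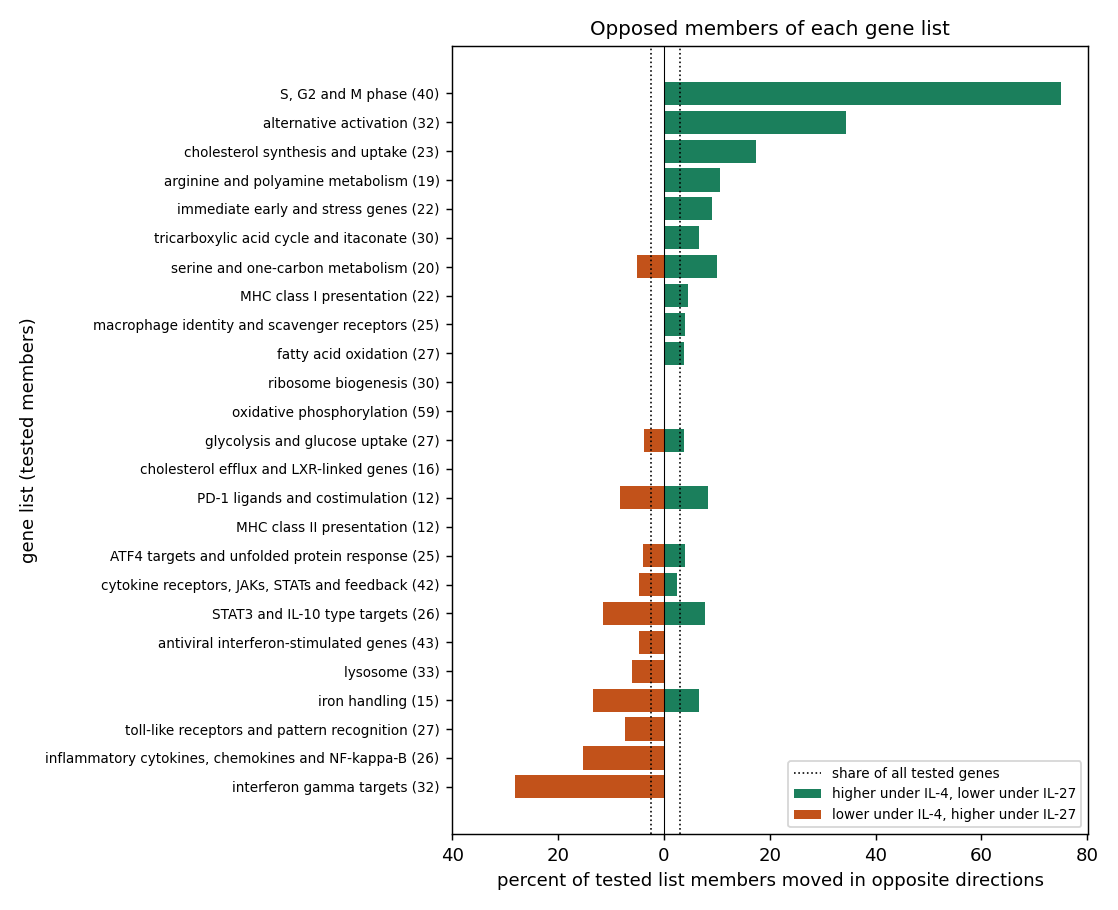
Percent of the tested members of each gene list that were higher under IL-4 and lower under IL-27 (green, to the right) or the reverse (orange, to the left), with the number tested in parentheses and dotted lines at the shares of all tested genes, 3.12% and 2.48%. Cell cycle genes reach 75% and alternative activation genes 34.4% at the right, and interferon gamma targets 28.1% at the left.

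Other lists held few or no opposed genes. The shares of all tested genes were 3.12% and 2.48%, so a count of 0 in lists this short says little about their members. In ribosome biogenesis 23 of 30 tested members rose under IL-4 and 18 under IL-27, and 0 were opposed. Of 12 MHC class II genes 6 rose under IL-4 and 2 under IL-27, with 4 lower and 1 higher in the direct comparison and 0 opposed. Among 33 lysosomal genes 15 were higher and 1 lower under IL-27 than under IL-4, with 2 lower under IL-4 and higher under IL-27 (6.06%, against 2.48% of all tested genes). Gla, one of the 2, was not opposed without untreated replicate 3 or with only 2 groups in the fit (edgeR adjusted p from 0.054 to 0.0693). In 16 cholesterol efflux genes 7 were higher and 3 lower with 0 opposed. Of 22 immediate early and stress genes 10 were lower and 3 higher under IL-27, and Fosl2 and Ier3 were higher under IL-4 and lower under IL-27 (9.09%, against 3.12%). Ier3 lost the call in 8 of 19 settings (edgeR failing adjusted p from 0.0538 to 0.127), including without untreated replicate 3, any 1 IL-27 library or IL-4 replicate 3.

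By level per gene length, opposed genes included abundant transcripts, chosen here after their values were seen. Lpl, lipoprotein lipase, had the highest mean of the first set under IL-4, at 1282 FPKM untreated, 1653 FPKM under IL-4 and 772 FPKM under IL-27. Its opposed call was lost in 11 of 19 settings (edgeR failing adjusted p from 0.0505 to 0.111), including without any 1 library except IL-4 replicate 1. Chil3 followed at 1476 FPKM under IL-4, against 16.2 FPKM untreated and 0.665 FPKM under IL-27. In the reverse set Rilpl2 and Lilrb4a had the highest means under IL-27, at 497 and 483 FPKM, against 165 and 294 FPKM under IL-4. Lilrb4a was not opposed without untreated replicate 1 or with only 2 groups in the fit (edgeR adjusted p from 0.0562 to 0.0631).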

How the data were processed

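RNA was extracted with TRIzol and made into polyA libraries (VAHTS Universal V6), per the labels' protocols. The deposited table gives whole-number counts per gene for 16200 genes. The submitters' processing notes name fastp, HISAT2, HTSeq and the GRCm39 build but give neither versions nor roles. The deposited FPKM values are the same counts per gene length and library total. They were used only where levels of different genes were compared. Annotation, strand setting and handling of shared reads: not given in the sources used here. The deposited transcription factor families and pathway names were used as labels.

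Counts were fitted in R 4.3.3 with edgeR 4.0.16 (quasi-likelihood, all 9 libraries, a term for group, TMM factors of 0.918 to 1.06, filterByExpr with a minimum count of 10, Benjamini-Hochberg over 12587 genes). The coefficient of variation between libraries was 0.165. Each SE is the absolute log2 change divided by the root of its F statistic. Counting intervals are exact at 95% and cover counting error only. The procedure was tested on simulated data. Members and gene lists were chosen with earlier results of these data known.

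Genes named are up to 14 per opposed set with the largest smaller change, at least 5 CPM in the higher treated group and no overlap among groups. They also include up to 8 of the largest direct differences each way at a mean of 5 CPM, 16 panel genes, opposed list members and up to 4 list members by smallest p, and 3 genes on each side of the threshold. Others were chosen after their values were seen. Some items are not reported here. Alternatives were RLE and upper quartile factors, DESeq2 1.42.0, other filters, fits of 2 groups, a replicate block, left-out libraries and subtraction of IL-4 signal. Promoter windows are RefSeq's on GRCm38.p6, matched by gene ID, and no coordinates of GRCm39 were used. Replicate numbers did not pair libraries: same-numbered deviations correlated at -0.81 to 0.68.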

Additional observations from a re-analysis of the deposited data

How the results depend on the processing

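The counts of genes higher and lower under IL-27 than IL-4 and of the opposed sets are given in that order throughout. Requiring at least 2-fold changes left 1050, 984, 109 and 48. Leaving out untreated replicate 2 and IL-4 replicate 1 together gave 3560, 3866, 859 and 759, and the cause was not tested. Leaving out each library in turn gave 1869 to 2644, 1961 to 3056, 270 to 415 and 199 to 383. The lowest of the last range, 199, came without untreated replicate 1. A fit with the replicate block gave 2034, 2182, 273 and 220, although the numbers do not pair the libraries. DESeq2 gave 2670, 2943, 491 and 407, RLE factors 2364, 2649, 394 and 314, and upper quartile factors 2408, 2603, 388 and 330. With no filter on low counts the numbers were 2251, 2613, 366 and 280, with CPM over 1 in 3 libraries 2320, 2518, 391 and 327, and with 2 groups per fit 2434, 2716, 317 and 212. Subtracting 1% of the IL-4 level from the untreated and IL-27 libraries gave 2381, 2666, 391 and 313. Of the direct differences of named genes, 3693 values kept their direction and side of the threshold, 9 no longer passed (Kit in 8 settings and H2-DMa without IL-27 replicate 1) and 0 reversed. Counts of few reads limit Retnla, Rnase2a, Iigp1 and Gbp4, whose lower group is near 0.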
